A study of Mus musculus with 12 samples.

Results

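The serpins of the fetal mouse liver were described here from 63 of the 30743 gene rows of an RNA sequencing table, all rows whose symbol joins Serpin to a clade letter from a to i and a number. The RNA came from whole livers of male C57BL/6J fetuses taken at 15 ± 0.5 dpc (days post coitum). Of the 12 livers, 6 were from dams fed a control diet with 13.5 kcal% fat and 6 from dams fed a high-fat diet (HFD) with 60 kcal% fat, in both cases for 12 to 14 weeks. The values used are the authors' averages over the livers of both diets, so each gene has a single level without an SD, and no difference between the diets is given. The labels do not say which fetuses were littermates. A whole liver at this age holds hepatoblasts, blood-forming cells, endothelium and mesenchyme, and in such bulk RNA fewer cells of a type and less RNA per cell cannot be told apart.

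Serpins are proteins of a shared fold, most of which trap a protease by offering it an exposed loop, the reactive centre loop, as bait. Cleavage of the loop makes the serpin change shape and locks the protease to it. The liver secretes many of them into plasma, where they restrain clotting, clot dissolution, complement and neutrophil proteases, while clade B members mostly stay inside cells and some serpins carry hormones or act as chaperones and inhibit no protease.

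The 63 genes spanned levels from the lowest of the table to 3893 CPM (read counts scaled to the library total). Of them, 18 lay at 1 CPM or more (33.1% of all rows did), 22 lay lower but above the level of a single read, 7 sat at the level of a single read, and 16 sat at the lowest level of the table, where 36.1% of all rows lay. Their median was 0.247 CPM, beside 0.222 CPM over all rows. Together they summed to 9976 CPM, or 0.993% of the sum of the table, and 98.6% of this came from the 7 highest genes: Serpina6, Serpinf2, Serpina1e, Serpinc1, Serpind1, Serpinf1 and Serpina1c. Of these 7, 4 stood among the 100 highest rows of the table.

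**Figure D1:**
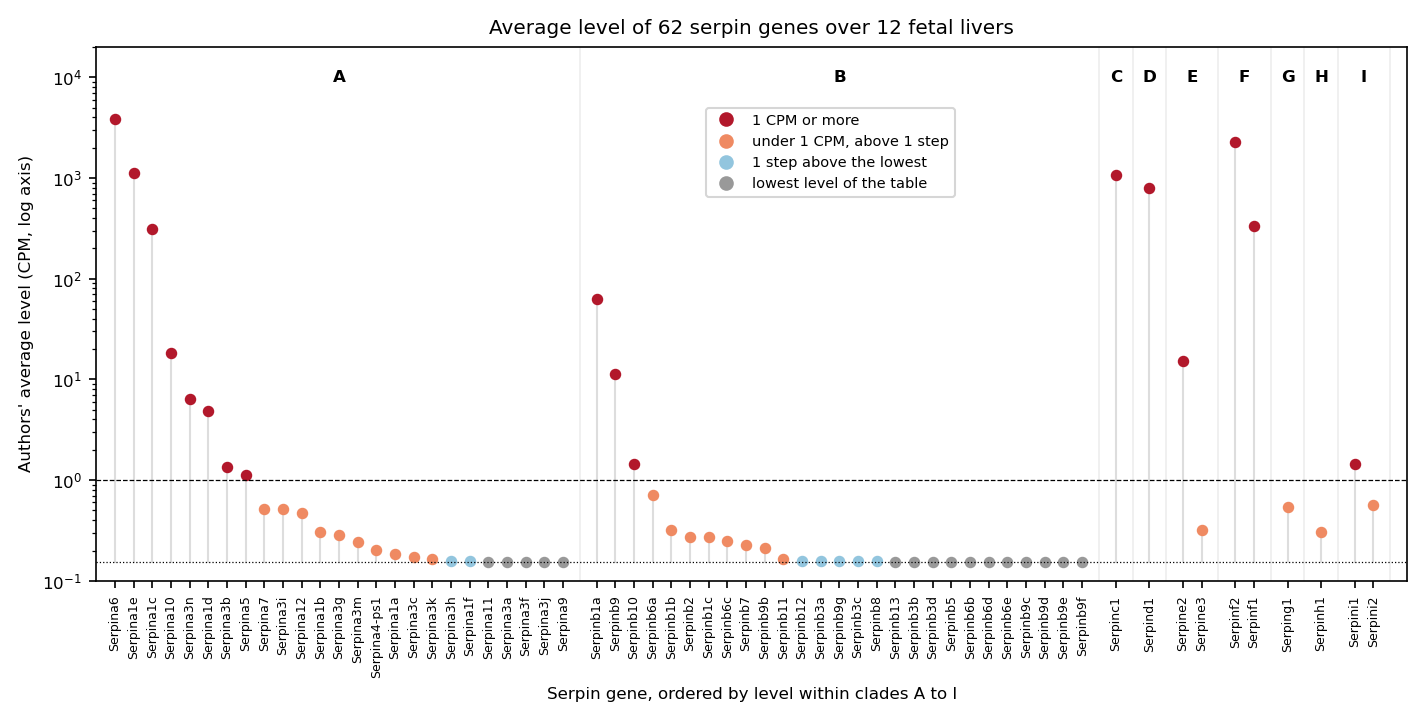
Each of 62 points is the authors' average level of 1 serpin gene over 12 fetal livers, in CPM on a log axis, ordered by level within clades A to I. The dashed line marks 1 CPM and the dotted line the lowest level of the table; 7 genes of clades A, C, D and F stand above 300 CPM, and no gene of clade B passes 62.3 CPM.

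The scale of the low values could be read from the table itself. The lowest level, 0.152 CPM, was shared by 11091 rows and is taken here as that of a gene without reads. Levels above it rose in steps of 0.00634 CPM, read here as 1 read over the 12 livers. Of the 5453 rows at 1 to 20 steps, 99.7% lay within 0.15 of a whole step. The lowest level equalled 24.0 steps, or 2.00 reads added per liver, and each further CPM equalled 158 normalised reads, or 13.1 per liver on average. The depth of single livers is not known from these values. A count of 0 allows up to 3 reads, or 0.0190 CPM above the lowest level, counting error only.

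A low listing does not show that a gene was silent. Of 78 listed cytosolic ribosomal protein genes, which every cell uses, 11 lay under 1 CPM and 4 at the lowest level, and the 78 ranged from 0.152 CPM to 2441 CPM for Rpl4. Hnf4a, a transcription factor that defines hepatoblasts, sat at the lowest level, Alas2 of erythroid heme synthesis at 0.704 CPM and the glycolytic gene Gapdh at 5.20 CPM. Other defining genes were abundant: albumin (Alb) at 63314 CPM and alpha-fetoprotein (Afp) at 54525 CPM for hepatoblasts, alpha globin (Hba-a2) at 49707 CPM for erythroid cells, and myeloperoxidase (Mpo) at 759 CPM for granulocyte precursors. Serpin genes at low levels are therefore given as listed.

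**Figure D2:**
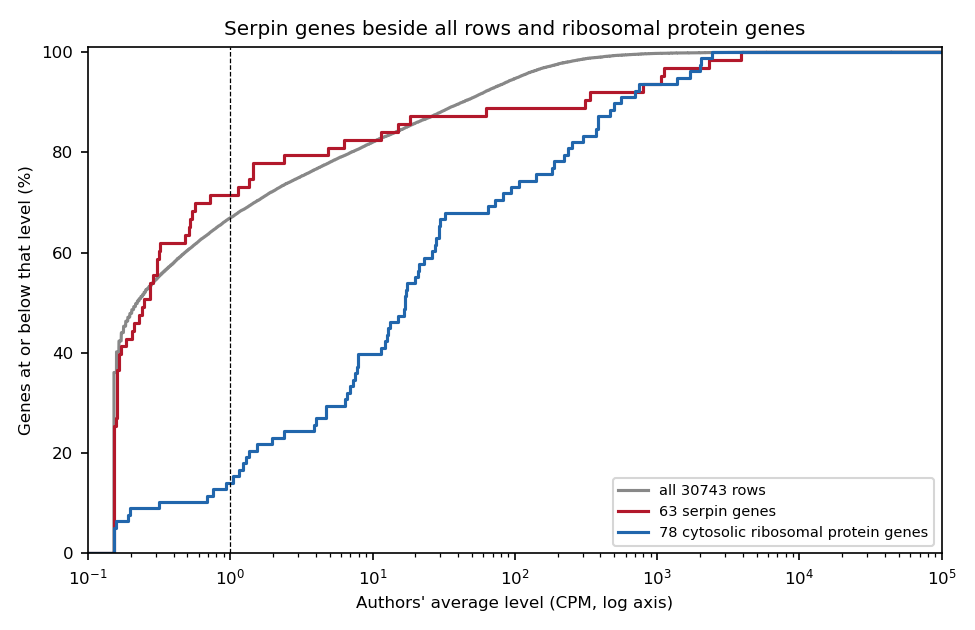
Cumulative share of genes (percent) at or below each average level (CPM, log axis) for all 30743 rows, the 63 serpin genes and 78 cytosolic ribosomal protein genes; the dashed line marks 1 CPM. At the lowest level the serpin line starts at 25.4% and that of all rows at 36.1%, and 11 ribosomal protein genes lie left of the dashed line.

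Clade A, the alpha-1 antitrypsin clade, held 25 genes and 53.7% of the summed serpin level, and per kilobase of transcript it held 64.4%. Serpina6, which encodes corticosteroid-binding globulin, the plasma carrier of glucocorticoids, was the highest serpin at 3893 CPM and took 72.6% of the clade. It lies at chr12:103646630-103657212 on the minus strand (GRCm38, annotated by GENCODE M21), has 5 exons in its main transcript and shared none of its 50-base words with another gene. Compared per length, Serpina6 had 2425 CPM per kb and led the family, 2.31 times the level of the next gene, Serpinf2. The thyroid hormone carrier Serpina7, on the X chromosome at chrX:139079257-139085236, was listed at 0.520 CPM, or 58.0 reads above the lowest level.

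The Serpina1 genes encode alpha-1 antitrypsin, known as a plasma inhibitor of neutrophil elastase, which mice carry as several near-identical copies. Which protease each copy inhibits was not tested, so their levels are not to be read as levels of elastase inhibitor. Serpina1e was listed at 1120.1 CPM, Serpina1c at 311 CPM and Serpina1d at 4.84 CPM, while Serpina1b was listed at 0.305 CPM and Serpina1a at 0.184 CPM. In reads above the lowest level, Serpina1b had 24.1 and Serpina1a 5.0. The 5 genes summed to 1437 CPM, nearly all of it from Serpina1e and Serpina1c. The more distant Serpina1f, 57.6% identical to Serpina1d in coding sequence, sat at the level of a single read.

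The coding sequences of the 5 genes, each of 1239 bases, were 96.3% to 98.5% identical over the 10 pairs, Serpina1a and Serpina1c being the closest pair. The bases differed most between positions 1099 and 1158, counted from the first base of the start codon, near the end of the coding sequence, which in a serpin encodes the reactive centre loop. This stretch of 60 bases is 4.84% of the coding sequence and held 19.8% of the 86 positions that vary among the 5 genes. It is shown because it is where these inhibitors differ most. Capitals mark the 17 positions at which the 5 genes are not all alike (transcript sequences of GENCODE M21).
Serpina1e: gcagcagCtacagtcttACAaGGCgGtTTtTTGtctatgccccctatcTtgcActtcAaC
Serpina1c: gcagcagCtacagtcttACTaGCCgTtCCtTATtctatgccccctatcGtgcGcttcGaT
Serpina1d: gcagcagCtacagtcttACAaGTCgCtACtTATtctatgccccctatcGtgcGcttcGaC
Serpina1b: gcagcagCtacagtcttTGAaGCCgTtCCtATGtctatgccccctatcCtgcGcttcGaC
Serpina1a: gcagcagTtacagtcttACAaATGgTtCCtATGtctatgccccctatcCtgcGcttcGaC
Over this stretch, pairs differed at 5 to 11 bases. Serpina1c and Serpina1d differed least, at 5, and Serpina1e differed from Serpina1a and from Serpina1c at 11 each.

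Reads could be shared among these copies. In their transcripts, 79.3% of the 50-base words of Serpina1c and 67.4% of those of Serpina1a also occurred in another gene (50.9% for Serpina1d, 35.8% for Serpina1b and 35.6% for Serpina1e). In addition, 31.5% of the exon bases of Serpina1c lie in exons of B430119L08Rik. The most shared partner of Serpina1a was Serpina1c, and that of Serpina1e was Serpina1d. How reads that match several genes were assigned is not given in the sources used here, so the level of each copy is uncertain and the part of shared reads in it was not tested.

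The promoters of the highest and the lowest copy are shown because they are nearly alike over the bases that align, while the listed levels are 1120.1 and 0.184 CPM. Both levels are uncertain because of the shared words given above, and a difference in expression between the copies was not tested. The 250 bases before each RefSeq start (GRCm38.p6) were 91.4% to 97.0% identical over the aligned bases of the 10 pairs. Serpina1e, the highest copy, was 95.3% identical to Serpina1a, the lowest, over 193 aligned bases. A run of 55 bases was the same in all 5 and occurred in 5 of the 32851 promoter windows of all genes, those of Serpina1a to Serpina1e. Capitals mark this run in the promoters of the highest and the lowest copy, at chr12:103956898-103957147 and chr12:103863620-103863869, both on the minus strand.
Serpina1e: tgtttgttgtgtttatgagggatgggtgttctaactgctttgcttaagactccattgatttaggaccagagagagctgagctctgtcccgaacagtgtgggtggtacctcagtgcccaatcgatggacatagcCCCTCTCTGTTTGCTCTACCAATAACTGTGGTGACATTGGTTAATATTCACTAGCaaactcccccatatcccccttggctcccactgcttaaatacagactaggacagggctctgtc
Serpina1a: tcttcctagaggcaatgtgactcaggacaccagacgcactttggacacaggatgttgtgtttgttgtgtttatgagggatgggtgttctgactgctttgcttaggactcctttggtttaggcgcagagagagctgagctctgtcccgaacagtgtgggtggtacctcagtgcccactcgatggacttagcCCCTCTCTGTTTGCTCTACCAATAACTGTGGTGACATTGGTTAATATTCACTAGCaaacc
The run began 117 bases before the RefSeq start of Serpina1e and 60 bases before that of Serpina1a, so the windows are offset against each other. The bases nearest the Serpina1e start therefore had no counterpart in the Serpina1a window and were not compared.

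The other clade A genes were lower. Serpina10, the protein Z-dependent inhibitor of coagulation factor X, was listed at 18.3 CPM. The acute phase antichymotrypsin Serpina3n was the highest of the Serpina3 family at 6.33 CPM, and Serpina3b followed at 1.36 CPM. The other 9 Serpina3 genes lay between 0.152 and 0.514 CPM, among them Serpina3k at 2.0 reads and Serpina3m at 14.0 reads above the lowest level. Serpina3k and Serpina3m were 91.1% identical in coding sequence, and 14.0% and 19.1% of their words were shared. Serpina5, which inhibits activated protein C, was listed at 1.13 CPM and the adipokine Serpina12 at 0.477 CPM. Serpina9, Serpina11, Serpina3a, Serpina3f and Serpina3j sat at the lowest level, and the pseudogene Serpina4-ps1 was listed 8.0 reads above it.

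Clade B was the largest with 27 genes but held 0.802% of the summed serpin level. Serpinb1a, the leukocyte elastase inhibitor that protects neutrophils and their precursors from their own granule proteases, was its highest gene at 62.3 CPM and took 77.8% of the clade. It lies at chr13:32842092-32851185 on the minus strand, and 3.42% of its words were shared. The granulocyte markers Mpo, Elane, Prtn3, Ctsg, Ngp and Ltf, which mark the cells this gene is known from, were all listed between 38.3 and 759 CPM. Its copies Serpinb1b and Serpinb1c, with coding sequences 89.9% and 88.2% identical to it, were listed at 0.323 and 0.273 CPM. Serpinb9, an inhibitor of granzyme B, followed Serpinb1a at 11.4 CPM. The other 6 Serpinb9 genes lay between 0.152 and 0.210 CPM, and Serpinb9c, Serpinb9d, Serpinb9e and Serpinb9f sat at the lowest level. Of these copies, Serpinb9f and Serpinb9g were 98.7% identical to each other.

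Serpinb10 (bomapin), which is known from blood-forming cells, was the last clade B gene above 1 CPM, at 1.44 CPM. GENCODE M21 lists it as a polymorphic pseudogene, and 8.34% of its exon bases lie in exons of Serpinb2. Serpinb2, an inhibitor of urokinase, was listed at 0.273 CPM, or 19.1 reads above the lowest level. Serpinb6a, with 29.3% of its exon bases in exons of other genes, was listed at 0.716 CPM. Of its copies, Serpinb6c was listed at 0.247 CPM, and Serpinb6b, Serpinb6d and Serpinb6e sat at the lowest level. Serpinb7 was listed at 0.228 CPM and Serpinb11 at 0.165 CPM. Serpinb3b, Serpinb3d, Serpinb5 and Serpinb13, genes known from squamous epithelia, sat at the lowest level, and Serpinb3a, Serpinb3c, Serpinb8 and Serpinb12 sat 1 read above it. The keratinocyte markers Krt5, Krt15 and Krt14 were listed at 0.731, 0.578 and 0.412 CPM, above the lowest level, and Trp63 sat at it. Of 27 clade B genes, 11 sat at the lowest level, where 36.1% of all rows lay, and 5 more at a single read.

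**Figure D3:**
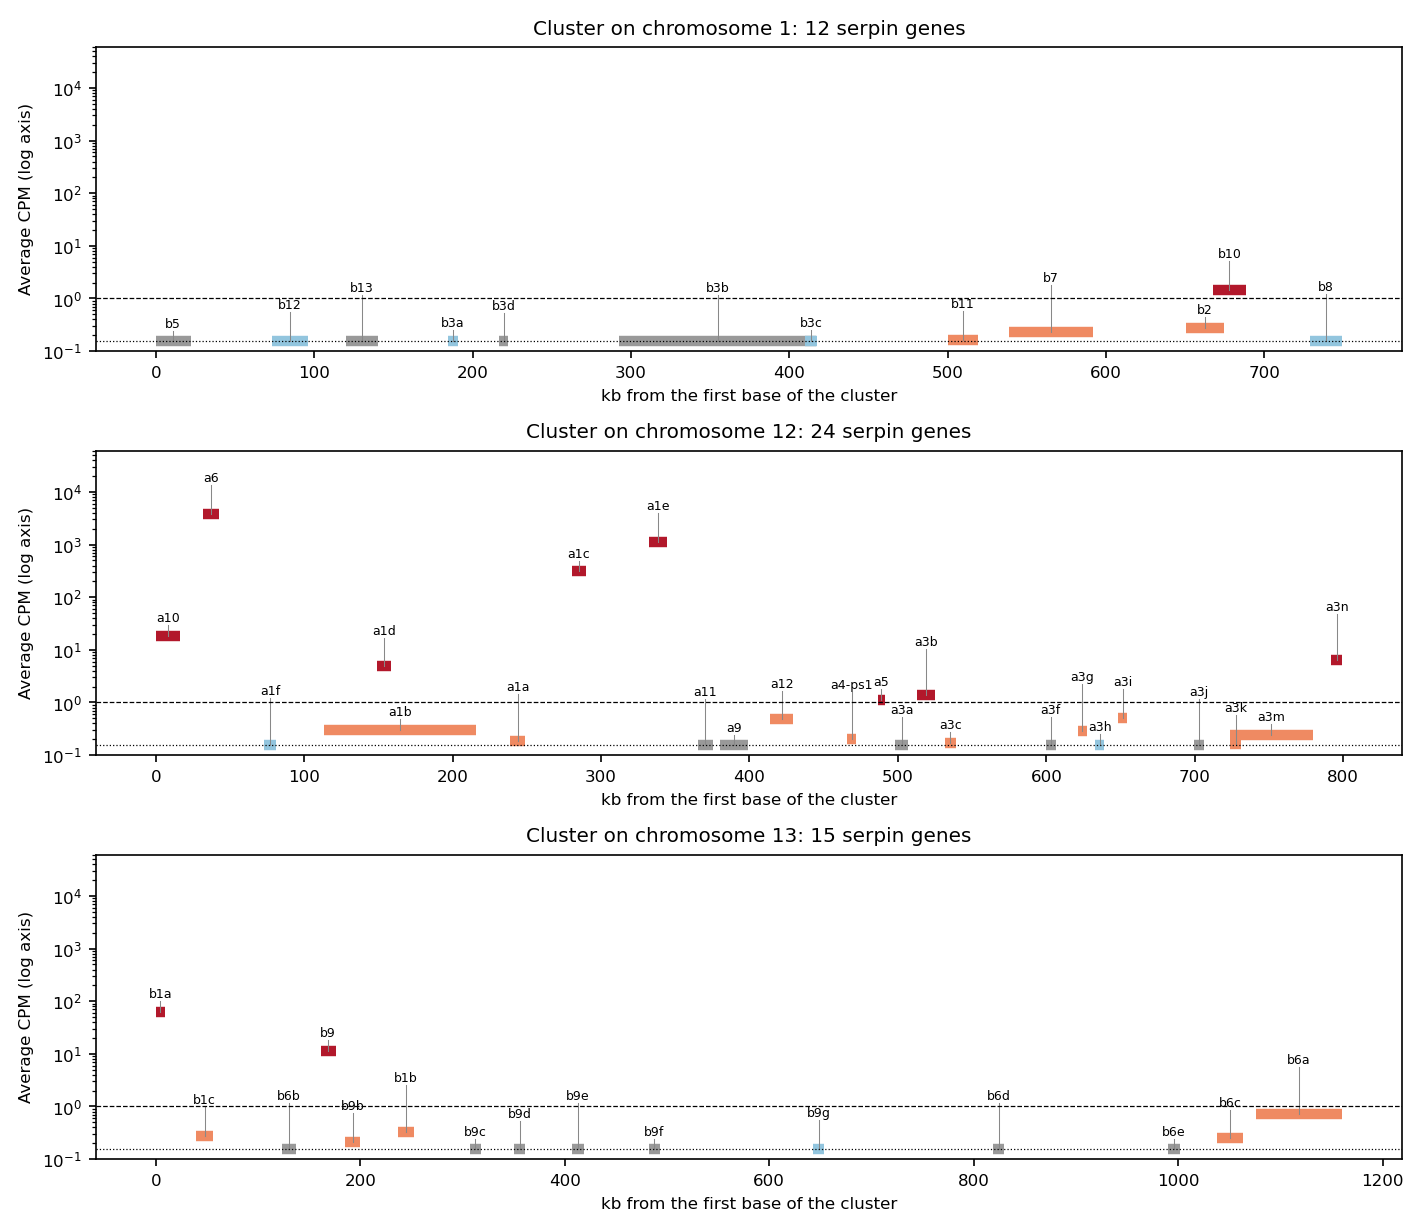
Serpin genes of the 3 large clusters, drawn to scale by distance from the first base of each cluster (kb) against average level (CPM, log axis), with names shortened by the prefix Serpin. Bars span the genes and are red at 1 CPM or more, orange below, blue 1 step above the lowest level and grey at it, with dashed and dotted lines at 1 CPM and at the lowest level. The chromosome 12 cluster holds genes from the lowest level to 3893 CPM, and the clade B clusters on chromosomes 1 and 13 hold 3 genes above 1 CPM in all.

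Most serpin genes lie in 3 clusters. The 24 clade A genes other than Serpina7 occupy 800 kb at chr12:103614786-104414329 and summed to 5360 CPM, with 8 genes at 1 CPM or more and 5 at the lowest level. High and low genes lay side by side there: Serpina1c and Serpina1e are followed by Serpina11 and Serpina9, both at the lowest level. Of the exon bases of Serpina11, 40.8% lie in exons of Gm28577, and 44.4% of its words were shared with that gene. A part of read assignment in its low listing was not tested. The 15 clade B genes at chr13:32842092-34002794 summed to 76.7 CPM, of which Serpinb1a gave most. The 12 clade B genes at chr1:106861173-107610484 summed to 3.35 CPM, with 1 gene above 1 CPM and 4 at the lowest level. Of all rows, 33.1% lay at 1 CPM or more and 36.1% at the lowest level.

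Other inhibitors of clotting and clot dissolution belong to the small clades C, D, E and F. Serpinf2, alpha-2-antiplasmin, the main inhibitor of plasmin, was the second serpin at 2304 CPM and lies at chr11:75431732-75439591. Its neighbour Serpinf1, at chr11:75409769-75422701, encodes pigment epithelium-derived factor, an antiangiogenic protein that inhibits no protease, and was listed at 336 CPM. Together clade F held 26.5% of the summed level. The coding sequences of Serpinf1 and Serpinf2 were 48.0% identical and neither shared words with another gene, so reads of the neighbours can be told apart.

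Serpinc1, antithrombin, which inhibits thrombin and activated factor X, was listed at 1072 CPM and lies at chr1:160978585-161005863. Serpind1, heparin cofactor II, which inhibits thrombin, was listed at 802 CPM and lies at chr16:17331371-17343575. Their order depended on the length used: per kilobase of transcript, Serpinc1 had 216 and Serpind1 366 CPM per kb, while per kilobase of coding sequence Serpinc1 had 769 and Serpind1 560 CPM per kb. The transcript of Serpinc1 taken here is 4970 bases long, and 34.4% of the exon bases of the gene lie in exons of Zbtb37, so its level per length is uncertain. Clades C and D held 10.7% and 8.04% of the summed serpin level.

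In clade E, Serpine2 (protease nexin-1), a tissue inhibitor of thrombin and plasminogen activators, was listed at 15.1 CPM. Serpine3 was listed at 0.318 CPM. In clade I, the neuronal inhibitor of tissue plasminogen activator Serpini1 was listed at 1.44 CPM and Serpini2 at 0.567 CPM. Of 4 neuron markers, Tubb3 and Syp were listed at 2.24 and 2.15 CPM, Snap25 at 0.305 CPM and Rbfox3 at the lowest level.

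Serping1 and Serpinh1, the sole members of clades G and H, were listed under 1 CPM. Serping1, at chr2:84765387-84775444, encodes the C1 inhibitor of complement and contact activation and was listed at 0.540 CPM, or 61.1 reads above the lowest level. Serpinh1, at chr7:99345376-99353239, encodes the collagen chaperone HSP47 and was listed at 0.304 CPM, or 23.9 reads, so that 50.1% of its level is the value that a gene without reads also has. Of 6 collagen clients, 5 were abundant, from Col4a2 at 148 CPM to Col3a1 at 712 CPM, while Col4a1 was listed at 0.165 CPM. Neither Serping1 nor Serpinh1 shared words or exon bases with another gene. GENCODE M21 annotates 7 transcripts for Serpinh1, 3 for Serping1 and 17 for Serpinb6a. Members with 4 or more transcripts had a median of 0.305 CPM (n = 15 genes) and those with 1 transcript 0.187 CPM (n = 18 genes), and a part of the annotation in single low values was not tested.

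Shared sequence varied widely within the family. In 25 of the 63 genes, 10% or more of the 50-base words occurred in another gene. Of these 25, 4 lay at 1 CPM or more (33.1% of all rows did). Their median level was 0.165 CPM, beside 0.314 CPM for the 38 genes that shared less. Besides the Serpina1 copies, the most shared were Serpinb9f with 78.7% and Serpinb9g with 54.8%, both mostly with Gm11397, and Serpinc1 with 58.8%, all with the overlapping Zbtb37.

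Promoter windows from RefSeq, 300 bases each, were matched for 52 of the 63 genes. The letters TATAAA, on either strand, were present in 1 of the 14 matched genes at 1 CPM or more, Serpina3b, and in 14 of the 38 below it. Among those 14 were all 4 Serpinb3 genes. Of all 27025 genes with a window, 15.7% held these letters. The palindromic consensus of the hepatocyte factor HNF1, 13 bases long, was found on either strand in none of the 52 and in 3 of the 32851 windows of all genes. So few windows hold these exact 13 bases that their absence from the 52 says nothing on HNF1 sites that differ from them.

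**Figure D4:**
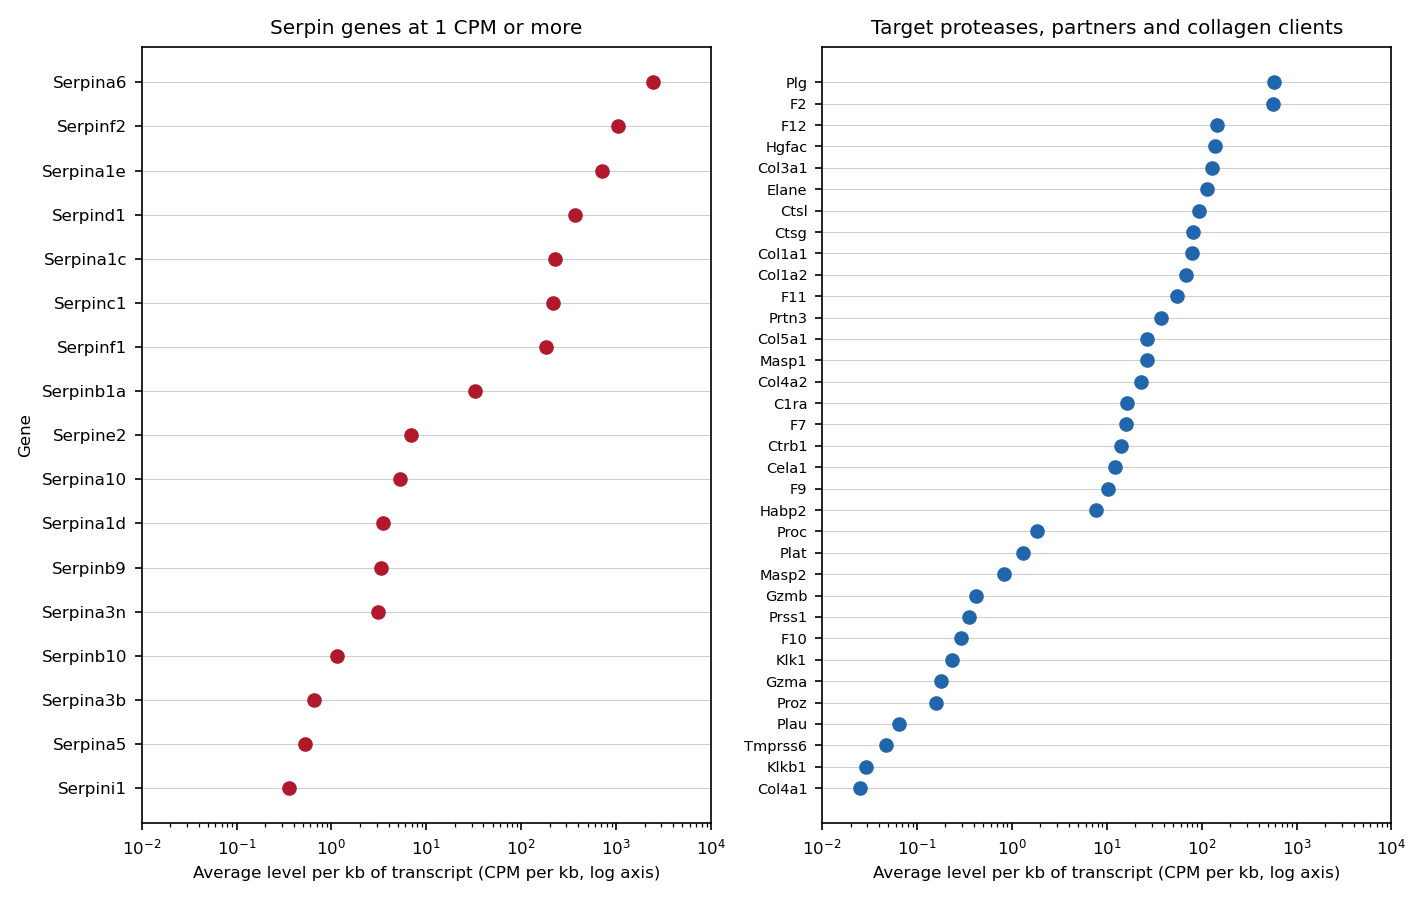
Average level per kilobase of transcript (CPM per kb, log axis) of 17 serpin genes at 1 CPM or more (left) and of the listed target proteases, partners and collagen clients with a transcript length (right). The lowest level was not subtracted, so genes at it differ by length only. Serpina6, Serpinf2 and Serpina1e lie above every protease drawn, of which plasminogen (Plg) and prothrombin (F2) are the highest.

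Proteases and partners of the serpins were listed in the same livers, and 19 of 29 lay at 1 CPM or more (33.1% of all rows did). Their levels are compared with those of their inhibitors per kilobase of transcript. The lowest level was not subtracted before dividing, so values of genes near it depend largely on length. Plasminogen (Plg), whose active form Serpinf2 inhibits, had 577 CPM per kb beside 1051 for Serpinf2. Prothrombin (F2) had 560 CPM per kb, above its inhibitors Serpind1 at 366 and Serpinc1 at 216, the latter over its long transcript. Serpine2, which also inhibits thrombin, had 6.83. Without a length, F2 was listed at 1113.5 CPM, close to Serpinc1 at 1072 CPM, and Serpind1 at 802 CPM. The neutrophil proteases inhibited by Serpinb1a were Elane at 114, Ctsg at 81.1 and Prtn3 at 37.4 CPM per kb, beside Serpinb1a at 32.5. The order of Prtn3 and Serpinb1a depended on the length used, since Serpinb1a had 54.8 CPM per kb of coding sequence, and without a length Prtn3 was listed at 38.3 and Serpinb1a at 62.3 CPM. The contact factor F12 had 146 CPM per kb and the complement proteases C1ra, Masp1 and Masp2 had 16.2, 26.7 and 0.824, beside 0.305 for Serping1. For C1s, which had no transcript length here, the listed level was 0.856 CPM beside 0.540 CPM for Serping1. Since a low listing does not show that a gene was silent, the low values here and below are listings only. They are not ratios of inhibitor to target RNA.

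For the plasminogen activators, tissue plasminogen activator (Plat) had 1.31 CPM per kb and urokinase (Plau) sat at the lowest level, beside 6.83 CPM per kb for Serpine2, which inhibits both. Serpini1, which inhibits the former, had 0.353 CPM per kb, below Plat, and Serpinb2, which inhibits the latter, 0.137. Of the level of Serpinb2, 55.7% is the value that a gene without reads also has. Protein C (Proc), the target of Serpina5, had 1.86 CPM per kb and Serpina5 0.521. Factor X (F10) and protein Z (Proz), a target and the cofactor of Serpina10, were listed at 0.293 and 0.161 CPM per kb beside 5.24 for Serpina10. Factor XI (F11), also among the listed proteases and partners, was higher than Serpina10, at 54.6 CPM per kb. Granzyme B (Gzmb), the target of Serpinb9, had 0.417 CPM per kb and Serpinb9 3.29. Prekallikrein (Klkb1) and Tmprss6 sat at the lowest level.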

How the data were processed

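Total RNA of 12 whole fetal livers was polyA-selected, made into libraries with the TruSeq RNA kit v2 and sequenced on an Illumina HiSeq. Per the labels and the study's methods, the authors trimmed with cutadapt 1.2.1 and aligned with Subread 1.3.6-p1 on mm10, and the authors then used biomaRt for gene names and edgeR for the fit. The read counter, the edgeR version and the normalization are not given in the sources used here. The authors deposited 1 row per gene symbol with an average log2 CPM over all livers, which was raised to CPM and used here. The other columns hold the authors' own comparison of the diets (log2 and signed fold changes, p-values and adjusted p-values, for each of the common and tagwise dispersions), beside a second average, and were not used. With no value for each liver, no test was run and no error between livers can be given.

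All 63 genes were matched to GENCODE M21. Lengths, exon numbers and shared words (50 bases, both strands, against all other genes) refer to the complete transcript with the longest coding sequence, and for the identity of the Serpina1 copies to that of the common coding length. Exon overlaps count either strand, since the libraries are not stated to keep it. Coding sequences were aligned globally and promoters with free ends (match 2, mismatch -1, gap opening -5, extension -1). Named were the 63 genes or their ranges, except 1 that is counted but not reported here by name, and lists of targets, collagens, other inhibitors and cell markers; ribosomal protein genes and genes every cell uses were added later. Members and lists were chosen with earlier results of these data known. Functions were tested on simulated data. Python 3.11.15, numpy 2.4.6, pandas 2.3.3, biopython 1.88 and matplotlib 3.10.9 were used.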

Additional observations from a re-analysis of the deposited data

How the results depend on the processing

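The number of serpin genes at 1 CPM or more was 18, and it ranged from 14 (threshold of 2 CPM, or without genes that share 10% of their words) to 23 (threshold of 0.5 CPM). The number at the lowest level was 16, and 23 within 0.1 log2 CPM of it. The summed level of 9976 CPM became 9967 CPM with the lowest level subtracted, 9966 CPM without genes under 1 CPM, and 6084 CPM without Serpina6. The share of clade A, 53.7%, became 64.4% per kilobase of transcript, 53.7% with the lowest level subtracted, 45.9% without the Serpina1 and Serpina3 families, and 24.1% without Serpina6. Serpina6 exceeded Serpinf2 1.69-fold in CPM, 2.31-fold per kilobase of transcript and 2.09-fold per kilobase of coding sequence. Leaving out Serpina6, shared words or overlapping genes was chosen after seeing the data.

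No paired analysis was possible because the values are averages over all livers and carry no replicate number. For the same reason no liver was left out, and the comparison of the diets with its alternatives was not run. The count of inhibitory-type hinges was not run because no protein sequence was used here, nor was the second average expression column. Levels under 1 CPM rest on fewer than 134 reads over 12 livers, so their order is loose.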

Other observations

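Other protease inhibitors and carriers of the liver, 14 genes outside the 63, included 11 at 1 CPM or more (33.1% of all rows did). Fetuin A (Ahsg), a plasma glycoprotein that binds mineral, had the highest level at 4569.5 CPM per kb of transcript, above Serpina6. Ambp, the precursor of alpha-1-microglobulin and bikunin, had 1725 CPM per kb and Itih2, a heavy chain joined to bikunin, 1231. The broad protease traps A2m and Pzp had 161 and 426 CPM per kb. Other heavy chains were listed very differently from each other, with Itih3 at 555 CPM per kb, Itih1 at 0.0701 and Itih4 at the lowest level of the table. Itih1 was listed at 0.216 CPM, near the lowest level of 0.152 CPM, so most of its value per kb is that level divided by length.

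Angiotensinogen (Agt), a serpin by descent that is the source of angiotensin and inhibits no protease, is not among the 63 because its symbol differs. It had 411 CPM, or 217 CPM per kb, between Serpina1c at 229 and Serpinc1 at 216 CPM per kb. The membrane-bound Kunitz inhibitors Spint1 and Spint2 were listed at 0.178 and 1.25 CPM, and the tissue factor pathway inhibitor Tfpi at 14.5 CPM.

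Among markers of other tissues, 4 of 7 acinar pancreas genes lay at 1 CPM or more, from Cel at 1.80 to Cela1 at 13.7 CPM. Of all rows, 33.1% did. Prss1 was listed at 0.284 CPM, Pnlip at 0.165 CPM and Amy2a5 at the lowest level. Of 3 intestinal genes, Fabp2 was listed at 15.4, Vil1 at 4.04 and Cdx2 at 0.709 CPM, and the 3 placental genes lay at or under 0.190 CPM. The macrophage genes Cd5l, Vcam1, Marco and C1qa ranged from 82.6 to 385 CPM, with Csf1r at 0.684 CPM. Of 4 megakaryocyte genes, Pf4 was highest at 149.8 CPM and Gp1bb lowest at 0.424 CPM, of 4 endothelial genes Lyve1 at 151 CPM and Pecam1 at the lowest level, and of 4 T and NK cell genes Nkg7 at 1.61 CPM and Prf1 at the lowest level. The 4 mesenchymal genes ranged from Dcn at 14.1 CPM to Col3a1 at 712 CPM. Of 3 genes listed as mast cell markers, Cpa3 was listed at 8.26 CPM, and Mcpt8 and Kit both at 0.159 CPM, the level of a single read. Kit is not particular to mast cells, since the study used c-Kit to count stem and progenitor cells in fetal livers. Its low listing therefore says nothing on mast cells.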
